A study of Mus musculus with 8 samples.

Results

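Imprinted genes are expressed mainly from the copy inherited from 1 parent, because methylation marks set in the egg or sperm silence the other copy. Many of them lie in clusters that share an imprinting control region, and in most clusters a long noncoding RNA is made from the opposite parental copy to the neighbouring protein coding genes. Several paternally expressed genes promote growth before and shortly after birth and several maternally expressed ones restrain it, and *Dlk1* (better known as *Pref1*), *Ndn* and *Grb10* are known to act in fat tissue. Expression of 40 imprinted genes was compared in inguinal white adipose tissue (ING WAT) between weaning and young adulthood. The genes were chosen by symbol from textbook lists, with earlier results of these data known. Of these 40 genes, 39 had transcripts of their own in the table of 38368 genes, and *Kcnq1ot1* was not analysed here.

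The ING depots came from C57BL/6j mice, an inbred wild-type strain, at postnatal day (PN) 21 (mice m1, m49, m138 and m145) and PN98 (mice m35, m106, m114 and m125), with 4 mice per age and no treatment named in the labels. Poly(A)+ RNA was sequenced, and expression is given in FPKM, the number of fragments scaled by transcript length and library size, summed over the transcripts of a gene. The labels name neither sex nor diet. Y-linked *Ddx3y* was at 18.1 to 25.9 FPKM in all 8 mice and *Xist* at no more than 0.832 FPKM in any, and any difference in diet between the ages cannot be told apart from age. Because the strain is inbred, the parental copy that was read could not be measured, and genes are grouped by the copy known to be expressed. In each list of values the mice stand in the order given here.

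The tissue label was checked on adipocyte markers, which summed to 13322 to 24799 FPKM at PN21 and 35367 to 46663 FPKM at PN98. Most of this sum was *Fabp4* (10641 to 20251 against 27521 to 37466 FPKM, limma adjusted p = 0.0540). Of the 8 markers, 3 were called higher, against 2.34% of all genes tested, and *Plin1* and *Retn* overlapped between the ages. Markers of dividing cells summed to 89.3 to 146 against 8.51 to 35.9 FPKM, and all 7 of these genes were lower at PN98 (adjusted p of 0.00554 to 0.0309 from limma). Lymphocyte markers reached 448 to 1068 FPKM at PN21 and 19.3 to 965 at PN98, with PN98 mouse m35 inside the range of the PN21 mice. Skeletal muscle markers lay at 69.4 to 579.8 FPKM at PN21 (highest in m138) and 563 to 3505 at PN98 (highest in m106). In whole tissue, fewer cells of a type and less RNA per cell cannot be told apart. Over all 16100 genes tested the median log2 fold change was −0.21, and scaling the mice by the median of ratios moved it to −0.02, so that a member near −0.21 moved like the median gene.

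Windows around RefSeq start sites (250 bases before to 50 after, GRCm38.p6) are shown for some called members. Each CpG, the dinucleotide at which imprints are laid down, stands in capitals. Methylation itself was not measured. The first 4 belong to genes of the *Igf2* and *Dlk1*/*Meg3* clusters that fell, and the last 2 to the genes that rose.
Igf2, chr7:142657447-142657746, minus strand: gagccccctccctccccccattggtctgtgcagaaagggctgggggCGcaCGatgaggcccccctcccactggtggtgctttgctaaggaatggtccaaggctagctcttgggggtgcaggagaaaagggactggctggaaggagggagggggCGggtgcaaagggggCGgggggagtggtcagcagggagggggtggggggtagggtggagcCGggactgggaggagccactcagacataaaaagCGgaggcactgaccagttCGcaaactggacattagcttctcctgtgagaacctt
Dlk1, chr12:109452573-109452872, plus strand: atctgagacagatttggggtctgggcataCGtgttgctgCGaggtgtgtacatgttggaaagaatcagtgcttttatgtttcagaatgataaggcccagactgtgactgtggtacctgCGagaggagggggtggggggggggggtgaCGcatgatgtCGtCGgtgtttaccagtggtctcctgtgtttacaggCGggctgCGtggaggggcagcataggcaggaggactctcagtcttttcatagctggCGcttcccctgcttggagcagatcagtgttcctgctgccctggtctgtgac
Meg3, chr12:109540746-109541045, plus strand: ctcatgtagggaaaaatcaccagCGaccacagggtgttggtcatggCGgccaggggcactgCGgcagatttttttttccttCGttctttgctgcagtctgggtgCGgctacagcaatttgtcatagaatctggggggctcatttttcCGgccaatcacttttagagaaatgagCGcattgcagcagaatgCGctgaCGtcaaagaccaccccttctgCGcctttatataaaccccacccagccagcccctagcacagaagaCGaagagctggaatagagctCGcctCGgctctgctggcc
Rian, chr12:109603695-109603994, plus strand: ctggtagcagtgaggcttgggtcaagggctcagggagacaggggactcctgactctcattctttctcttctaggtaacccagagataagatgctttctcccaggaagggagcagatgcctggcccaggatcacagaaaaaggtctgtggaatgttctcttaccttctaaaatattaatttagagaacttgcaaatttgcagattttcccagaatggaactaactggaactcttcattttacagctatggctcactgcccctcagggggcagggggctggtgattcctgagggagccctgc
Slc22a18, chr7:143473539-143473838, plus strand: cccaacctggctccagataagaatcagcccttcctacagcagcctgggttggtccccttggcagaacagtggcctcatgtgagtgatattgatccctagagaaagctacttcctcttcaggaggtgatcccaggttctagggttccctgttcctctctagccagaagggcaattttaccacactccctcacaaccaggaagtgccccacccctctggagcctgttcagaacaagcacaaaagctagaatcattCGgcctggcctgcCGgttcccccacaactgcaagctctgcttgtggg
Zrsr1, chr11:22971755-22972054, plus strand: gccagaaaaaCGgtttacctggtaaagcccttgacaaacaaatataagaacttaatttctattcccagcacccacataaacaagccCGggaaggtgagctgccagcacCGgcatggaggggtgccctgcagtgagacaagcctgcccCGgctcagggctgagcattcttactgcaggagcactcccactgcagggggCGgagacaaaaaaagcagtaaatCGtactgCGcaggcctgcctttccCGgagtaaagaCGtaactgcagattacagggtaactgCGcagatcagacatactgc

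The 6 windows differed in CpG content, with none in *Rian* and 2 in *Slc22a18*. *Igf2* held 7, *Dlk1* 9, *Zrsr1* 10 and *Meg3* 13. Among these windows, neither those of falling nor those of rising members shared a CpG-rich start. Other windows of a gene can differ, as the *Igf2* windows not shown held 2, 14 and 24 CpG. Of the other falling members with windows, also not shown, *Grb10* held 45 and 9, *Mirg* 10, *Ndn* 11 and *Slc38a4* 5 in each. Of 4 *Igf2* windows, the one shown lies at the start of the transcript Igf2-201. The *Dlk1* window lies at the starts of Dlk1-210 and Dlk1-201, both listed at 0 FPKM in every mouse. The *Dlk1* transcripts with FPKM start downstream of this window. Over 52 windows of 34 members the median was 12.5 CpG per window (range 0 to 48), against 7 over the 32851 mouse windows used, in which chromosome 18 was left out. The letters TGCCGC, read on both strands and known as the motif of the imprint-keeping factor ZFP57, stood in 11 of the 52 member windows and in 11.6% of all windows. The letters GGGGCCCC, a core of the motif of PLAGL1, stood in 3 of the 52 member windows (*Peg3*, *Usp29* and *Ppp1r9a*) and in 1.08% of all windows. The *Peg3* and *Usp29* windows overlap, as these genes start next to each other on opposite strands, so that they share 1 copy. The core motif of CTCF stood in none of the 52 and in 0.0365% of all windows. Of the 6 windows shown, that of *Meg3* alone held TGCCGC, as did another *Igf2* window that is not shown.

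Genes were tested with limma on log2(FPKM + 1), as PN98 minus PN21, for genes with a mean of at least 1 FPKM over the 8 mice, and called at a Benjamini-Hochberg adjusted p under 0.05 over all genes. The filter left 32 of the 39 members and kept out 7. Of the 32, 9 were called lower at PN98 (*H19*, *Igf2*, *Dlk1*, *Meg3*, *Rian*, *Mirg*, *Grb10*, *Ndn* and *Slc38a4*), against 2.91% of all genes tested. Called higher were 2 members, *Slc22a18* and *Zrsr1*, against 2.34% of all genes. These 11 compare with 5.25% of all genes called in either direction, and the other 21 were not called. *H19*, *Igf2*, *Dlk1*, *Meg3*, *Rian* and *Mirg* lie at 2 loci. As members were chosen with earlier results of these data known, the shares are not those of a list drawn blind. At an unadjusted p under 0.05 stood 18 of the 32, against 27.2% of all genes. The calls depended on single mice: without m35, 10 members were lower and 5 higher (3594 genes called in all), and without m1, m49 or m106, 6 were lower and 2 higher (192 genes in all without m106). Without m138 and m106, the mice richest in muscle markers at each age, 1 member (*H19*) and 15 genes in all were called with 3 mice per age, and the other 10 called members kept their direction (adjusted p of 0.0604 to 0.172).

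**Figure D1:**
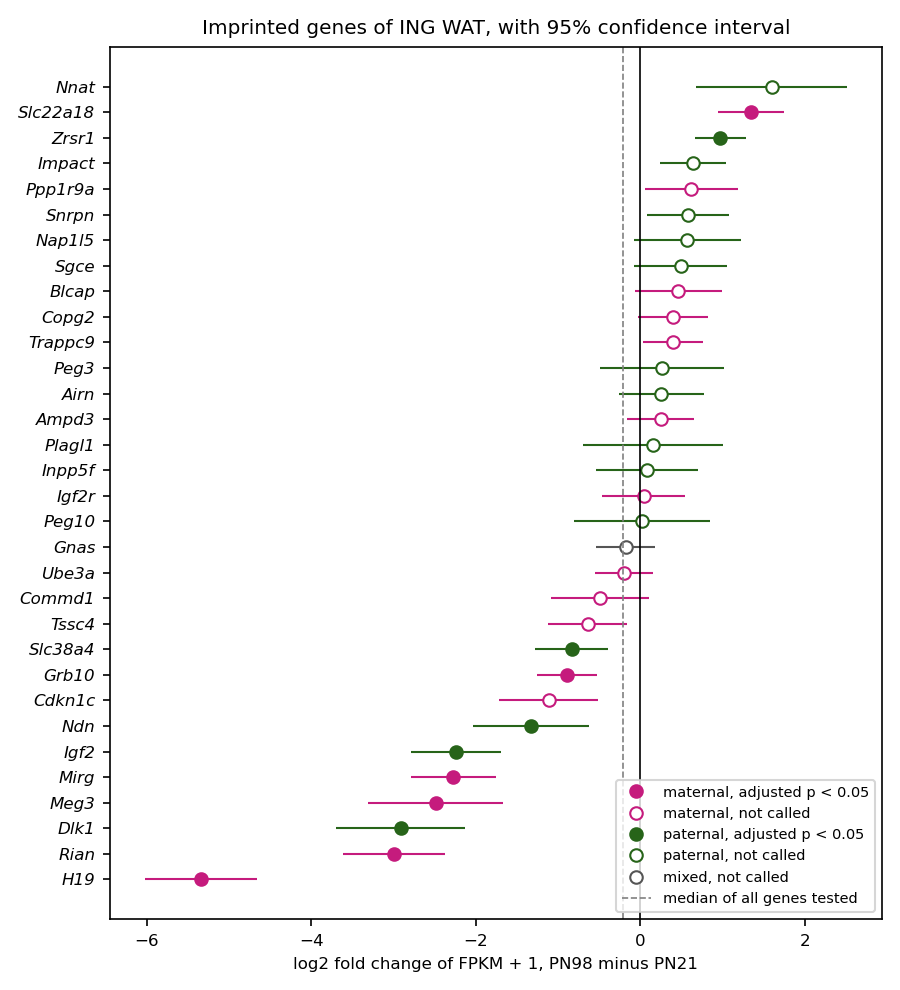
Log2 fold change of FPKM + 1 (x axis, PN98 minus PN21, 4 mice per age) of the 32 imprinted genes tested, with 95% confidence interval from limma. Colours give the parental copy known to be expressed and filled points the called genes, and *H19* lies lowest at −5.34 while 9 filled points lie left of 0 and 2 right of it.

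The *H19*/*Igf2* locus on chromosome 7 holds a noncoding RNA and a growth factor that share enhancers but are read from opposite copies. *H19* (chr7:142575529-142578143, minus strand), the maternally expressed noncoding RNA, was at 191, 182, 126 and 118 FPKM at PN21 and at 2.29, 5.34, 2.50 and 1.70 FPKM at PN98. Every PN98 mouse thus lay far under every PN21 mouse, and the group means were 154 ± 37.5 FPKM (SD, n = 4) and 2.96 ± 1.62 FPKM (SD, n = 4), a 52.1-fold lower mean at PN98. *H19* had the second lowest p of all genes tested (log2 fold change −5.34 with a standard error of 0.30, limma adjusted p = 5.49e-04). *Igf2* (chr7:142650766-142666816, minus strand), the paternally expressed fetal growth factor, was at 20.9, 25.3, 16.5 and 20.2 FPKM at PN21 and 5.11, 2.27, 4.45 and 2.95 FPKM at PN98. The ages did not overlap, and the mean fell 5.61-fold (log2 fold change −2.24 with a standard error of 0.24, limma adjusted p = 0.00397). *Igf2r* (chr17:12682406-12769664), the maternally expressed receptor that clears IGF2 for breakdown in lysosomes, was at 7.23 to 15.0 FPKM at PN21 and 11.04 to 13.3 FPKM at PN98, with overlapping ages (log2 fold change 0.04, 95% confidence interval −0.47 to 0.55, adjusted p = 0.919 from limma).

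The fall of *Igf2* was carried by both of its main transcripts. Igf2-208 was at 6.52 to 12.9 FPKM at PN21 and 1.05 to 2.45 FPKM at PN98 and Igf2-201 at 6.65 to 11.7 and 0.469 to 2.58 FPKM, and both passed the transcript-level test (limma adjusted p = 0.0299 and 0.0455). They made up 47.6% and 40.8% of the *Igf2* FPKM over the 8 mice. Of the transcripts that start further upstream, Igf2-207 reached 1.99 FPKM and held 5.64% of the FPKM, Igf2-203 reached 1.62 FPKM, and Igf2-204, Igf2-205 and Igf2-206 stayed at or under 0.777 FPKM in every mouse. Of *H19*, 3 transcripts held nearly all FPKM, and each lay lower in all PN98 mice, the highest PN98 value of any being 2.21 FPKM and the lowest PN21 value 26.3 FPKM, both in H19-204.

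Further along the same chromosome lies the *Kcnq1ot1* domain, of which *Cdkn1c*, *Phlda2*, *Slc22a18* and *Tssc4* are maternally expressed. *Cdkn1c* (chr7:143458339-143461050), which encodes the cell cycle inhibitor p57, was at 20.5, 12.8, 15.4 and 26.1 FPKM at PN21 and 10.9, 7.95, 7.51 and 5.62 FPKM at PN98. These ranges did not overlap, yet the gene missed the threshold (log2 fold change −1.11 with a standard error of 0.26, limma adjusted p = 0.0512) and passed it under 6 of 19 alternatives, among them the filter of the study (adjusted p = 0.0326), arrayWeights (0.0104) and leaving out m35 (0.0202). *Slc22a18* (chr7:143473736-143499334, plus strand), an organic cation transporter-like membrane protein, moved the other way, from 1.37, 0.818, 0.667 and 0.885 to 3.19, 3.54, 3.99 and 4.95 FPKM. All 4 PN98 mice lay above all PN21 mice and the mean rose 4.19-fold (log2 fold change 1.35 with a standard error of 0.18, limma adjusted p = 0.00757), with the PN21 mean itself under 1 FPKM. *Tssc4* (chr7:143069249-143071093) lay at 22.2, 15.8, 15.2 and 27.7 FPKM at PN21 and at 13.7, 11.8, 12.1 and 11.5 FPKM at PN98, again without overlap but not called (log2 fold change −0.64 with a standard error of 0.21, limma adjusted p = 0.111). *Phlda2* (chr7:143501545-143503150), which restrains placental growth, was at 0, 0, 0.0527 and 0.124 FPKM at PN21 and 0.139, 0.0319, 0 and 0 FPKM at PN98, under the filter.

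All 4 members of the *Dlk1*/*Meg3* cluster on chromosome 12 fell, the paternally expressed protein coding gene and the 3 maternally expressed noncoding RNAs alike. *Dlk1* (chr12:109452823-109463336, plus strand), a transmembrane protein that holds preadipocytes back from differentiation, was at 14.8, 25.4, 7.61 and 12.7 FPKM at PN21 and 1.09, 0.807, 1.67 and 0.532 FPKM at PN98. The lowest PN21 mouse, m138, was still above the highest PN98 mouse, m114, and the mean was 14.8-fold lower (log2 fold change −2.91 with a standard error of 0.34, limma adjusted p = 0.00554). *Meg3* (chr12:109541001-109571726, plus strand), the first noncoding RNA of the cluster, was at 196, 119.9, 129 and 173 FPKM at PN21 and 41.9, 22.9, 36.5 and 13.3 FPKM at PN98. It was 5.40-fold lower in the mean (log2 fold change −2.49 with a standard error of 0.36, limma adjusted p = 0.0115), with m125 lowest among the PN98 mice. With the highest transcript of each gene *Meg3* narrowly lost its call (adjusted p = 0.0541).

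*Rian* (chr12:109603940-109661716, plus strand), the host of a family of C/D box small nucleolar RNAs, was at 77.0, 61.0, 62.6 and 47.5 FPKM at PN21 and 8.39, 5.14, 10.5 and 4.56 FPKM at PN98. Its mean was 8.69-fold lower with no overlap (log2 fold change −2.997 with a standard error of 0.27, limma adjusted p = 0.00223). *Mirg* (chr12:109729764-109749460, plus strand), a host of microRNAs at the far end of the cluster, was at 11.1, 8.42, 6.58 and 8.61 FPKM at PN21 and 1.48, 1.12, 1.08 and 0.404 FPKM at PN98. It too showed no overlap (log2 fold change −2.27 with a standard error of 0.22, limma adjusted p = 0.00286), and the 8.51-fold lower mean is more than the fold change on the log2(FPKM + 1) scale states, because its PN98 values are near 1. The 4 RNAs *H19*, *Meg3*, *Rian* and *Mirg* summed to 324 to 475 FPKM at PN21 and 19.9 to 54.0 FPKM at PN98. *Airn*, the fifth noncoding RNA with values, overlapped between the ages (3.89 to 5.54 against 3.69 to 8.06 FPKM, log2 fold change 0.26, limma adjusted p = 0.465). Its only transcript tested singly, Airn-201, lay lower in every PN98 mouse (1.69 to 2.87 against 1.14 to 1.37 FPKM). That transcript was not called (log2 fold change −0.81, limma adjusted p = 0.115).

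Among 5 *Meg3* transcripts that each held over 5% of its FPKM, all lay lower in every PN98 mouse than in any PN21 mouse, and 3 of them passed the transcript-level test (Meg3-209, Meg3-202 and Meg3-205, limma adjusted p = 0.0375, 0.0447 and 0.0461). Meg3-205, which starts at the first base of the gene and covers its near end, was at 17.1 to 30.8 FPKM at PN21 and 2.09 to 7.88 FPKM at PN98. Meg3-211, which runs to its far end, was at 21.0 to 51.8 and 5.04 to 12.2 FPKM (limma adjusted p = 0.0631). When every row that names *Rian* or *Mirg* was added, small RNAs inside them included, the 2 genes lost their calls, with log2 fold changes of −2.43 and −1.23 (limma adjusted p = 0.175 and 0.516).

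**Figure D2:**
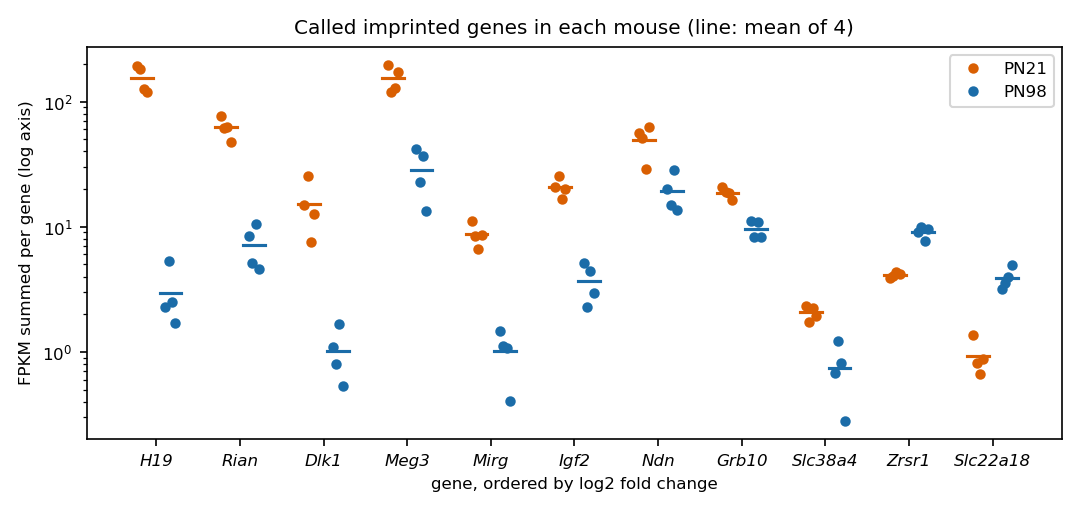
FPKM summed per gene (log axis) of the 11 called imprinted genes in each of 4 PN21 and 4 PN98 mice, with the mean of each age as a line. Orange and blue points do not overlap in any of the 11 genes, and the gap is widest in *H19* (118 to 191 against 1.70 to 5.34 FPKM).

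Outside these 2 clusters, 3 more members fell. *Grb10* (chr11:11930508-12038683), a maternally expressed adaptor that dampens insulin and IGF1 receptor signalling, was at 20.6, 18.8, 18.7 and 16.5 FPKM at PN21 and 11.1, 8.33, 10.8 and 8.32 FPKM at PN98. The spread within each age was small and the mean fell 1.93-fold (log2 fold change −0.89 with a standard error of 0.16, limma adjusted p = 0.0214). Its call was lost without m1, m49, m138 or m106 (adjusted p of 0.0591 to 0.0756), although the log2 fold change stayed between −0.89 and −0.83 there, and with scaling to nuclear genes (−0.63, adjusted p = 0.0961). The 2 transcripts with most of the FPKM, Grb10-203 and Grb10-201, start at different positions and were at 6.81 to 12.5 and 5.84 to 9.88 FPKM at PN21. At PN98 they were at 3.94 to 5.53 and 3.06 to 5.27 FPKM (limma adjusted p = 0.0762 and 0.121).

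*Ndn* (chr7:62346569-62350262, plus strand), the paternally expressed MAGE family protein necdin, was at 56.0, 51.2, 28.6 and 62.0 FPKM at PN21 and 19.9, 15.0, 28.2 and 13.5 FPKM at PN98. PN21 mouse m138 and PN98 mouse m114 nearly met at 28.6 and 28.2 FPKM, and the call was narrow (log2 fold change −1.32 with a standard error of 0.31, limma adjusted p = 0.0487). It was lost without any 1 of m1, m49, m145, m106, m114 or m125 (adjusted p of 0.0596 to 0.139), and with a pseudocount of 0.1, no filter, both scalings or the highest transcript (0.0558 to 0.0763). *Slc38a4* (chr15:96994820-97055956), a paternally expressed amino acid transporter, was at 2.32, 1.75, 2.26 and 1.95 FPKM at PN21 and 0.674, 1.23, 0.817 and 0.279 FPKM at PN98 (log2 fold change −0.83 with a standard error of 0.19, limma adjusted p = 0.0476). Its call held without m35 and was lost without each of the other 7 mice (adjusted p of 0.0645 to 0.117), as with a pseudocount of 0.1, both scalings or limma's trend (0.0585 to 0.120). The gene passed the filter through its PN21 values, since its PN98 mean was 0.749 FPKM.

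*Zrsr1* (chr11:22972005-22976496, plus strand), a paternally expressed relative of the splicing factor U2AF35 that lies inside an intron of *Commd1*, rose. It was at 3.90, 4.06, 4.36 and 4.17 FPKM at PN21 and 9.08, 9.96, 7.70 and 9.60 FPKM at PN98, so that the 4 PN21 mice were close to each other and all PN98 mice lay well above them (log2 fold change 0.97 with a standard error of 0.14, limma adjusted p = 0.010004). *Commd1* (chr11:22896136-22982382), its maternally expressed host on the other strand, was at 107 to 217 against 86.0 to 153 FPKM (log2 fold change −0.49, limma adjusted p = 0.250). The direction of *Zrsr1* depended on the rows used, because with every row that names it, *Commd1* rows among them, its log2 fold change was −0.41 (limma adjusted p = 0.266). The library kit marks strand, but whether strand was used in the quantification was not given in the sources used here, so reads of overlapping genes such as *Zrsr1* and *Commd1*, *Airn* and *Igf2r*, or *Nnat* and *Blcap* may not have been told apart.

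*Nnat* (chr2:157560078-157562522), a paternally expressed proteolipid of the endoplasmic reticulum, had the highest fold change of all members on the log2(FPKM + 1) scale, though not a called one. It was at 401, 252, 228 and 629.8 FPKM at PN21 and 1304, 737, 1680.1 and 764 FPKM at PN98 (log2 fold change 1.60 with a standard error of 0.40, limma adjusted p = 0.0585). The ages did not overlap, and *Nnat* passed the threshold with the filter of the study (adjusted p = 0.0347), median of ratios scaling (0.0282), scaling to nuclear genes (0.0295) and arrayWeights (0.0228). *Blcap* (chr2:157556362-157571274), in an intron of which *Nnat* lies, was at 37.9 to 63.1 and 49.7 to 86.4 FPKM (0.47, adjusted p = 0.226 from limma). *Impact*, an inhibitor of the amino acid sensor GCN2, was at 5.17 to 8.04 FPKM at PN21 and 9.35 to 12.5 FPKM at PN98 without overlap, and was not called (0.64, adjusted p = 0.0750 from limma). *Trappc9*, a subunit of a vesicle tethering complex, was also without overlap at 10.5 to 15.2 and 15.5 to 17.9 FPKM (0.40, adjusted p = 0.159 from limma).

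In all, 11 of the 32 members did not overlap and were lower at PN98 (against 9.99% of all genes tested) and 5 did not overlap and were higher (6.06%). The remaining members above the filter had overlapping ages. Under median of ratios scaling the small negative fold changes of *Gnas* and *Ube3a* became 0.06 and 0.01. In the *Snrpn* cluster, *Snrpn*, which encodes the spliceosomal protein SmN, was at 5.50 to 10.95 and 10.9 to 16.1 FPKM (log2 fold change 0.59), and *Ube3a*, a ubiquitin ligase whose imprint is restricted to neurons, at 8.33 to 11.02 and 6.80 to 9.11 FPKM (−0.20). In the *Peg10* cluster, *Sgce*, encoding epsilon-sarcoglycan, was at 19.1 to 34.6 and 27.3 to 48.0 FPKM (0.49), *Ppp1r9a*, encoding the actin-binding protein neurabin, at 1.46 to 2.14 and 1.96 to 5.60 FPKM (0.62) and the retrotransposon-derived *Peg10* at 1.06 to 2.00 and 0.427 to 3.86 FPKM (0.03). These 5 genes had limma adjusted p-values between 0.141 and 0.970.

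The zinc finger genes *Peg3* (8.57 to 15.6 and 8.93 to 24.4 FPKM, 0.27) and *Plagl1* (5.79 to 10.9 and 4.74 to 17.5 FPKM, 0.15) showed fold changes that were smaller than their spread. *Plagl1* encodes a transcription factor of other imprinted genes, and 1 transcript, Plagl1-202, held 77.2% of its FPKM. *Copg2*, a coatomer subunit, was at 13.2 to 16.8 and 15.0 to 23.8 FPKM (0.40), *Nap1l5*, of the nucleosome assembly family, at 0.794 to 1.42 and 0.957 to 3.26 FPKM (0.57) and *Ampd3*, an AMP deaminase, at 3.78 to 6.17 and 5.46 to 7.26 FPKM (0.25). *Inpp5f*, an inositol phosphatase gene with a paternal variant that starts inside it, was at 6.40 to 11.7 and 5.21 to 12.2 FPKM (0.08). The limma adjusted p of these 6 genes lay between 0.1995 and 0.869. Of 6 *Inpp5f* transcripts that start inside the gene, the 2 tested, Inpp5f-208 and Inpp5f-206, differed in direction without passing the test (−0.78 and 0.79, limma adjusted p = 0.370 and 0.5003).

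*Gnas*, which encodes the G protein subunit Gs alpha from 1 promoter and NESP55 and XL alpha s from others, had a high total of 736 to 1024 FPKM at PN21 and 722 to 849 FPKM at PN98 and no call (−0.18, adjusted p = 0.469 from limma). Its transcripts differed from the total. The 5 transcripts that start in the maternally expressed Nesp region were at 8.67, 5.68, 7.69 and 6.14 FPKM at PN21 and 2.90, 2.17, 2.64 and 2.44 FPKM at PN98, without overlap. The 3 transcripts of the paternally expressed XL region were at 0.119 to 0.696 FPKM at PN21 and 0 to 0.0316 FPKM at PN98. The 4 transcripts of Gs alpha exon 1 were at 623, 586, 592 and 638 against 453, 440.4, 501 and 539 FPKM, lower by far less but again without overlap. Transcripts starting in the region of exon 1A (90.2 to 288 against 155 to 204 FPKM) and inside the gene overlapped. These groups were formed by start position after the values had been seen, and carry no test of their own. At the transcript level, Gnas-222 of the Nesp region (−1.17) and Gnas-202 of the exon 1A region (−1.23) passed the test (limma adjusted p = 0.0470 and 0.0424), whereas Gnas-206, the most abundant Gs alpha transcript, did not (−0.46, 0.164).

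**Figure D3:**
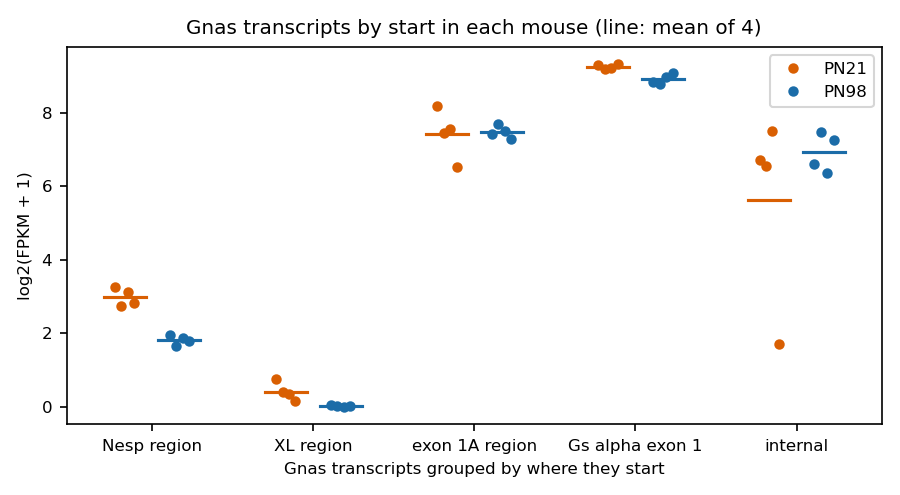
Gnas transcripts grouped by where they start (x axis) as log2(FPKM + 1) in each of 4 PN21 and 4 PN98 mice, with the mean of each age as a line. The ages are apart in the Nesp region (5.68 to 8.67 against 2.17 to 2.90 FPKM), the XL region and Gs alpha exon 1, and overlap in the exon 1A region and in transcripts that start inside the gene.

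The 7 members under the filter were *Usp29*, *Zim1*, *Phlda2*, *Magel2*, *Mkrn3*, *Peg12* and *Asb4*. *Magel2*, a MAGE family partner of ubiquitin ligases and neighbour of *Ndn*, was at 0.516, 0.882, 0.170 and 0.1003 FPKM at PN21 and listed at 0 in all 4 PN98 mice. *Peg12*, a relative of the GSK3-binding protein FRAT1, was at 0.755, 0.385, 0.694 and 0.847 FPKM at PN21 and 0.232, 0.116, 0.317 and 0.0486 FPKM at PN98. Both lay lower in every PN98 mouse, as did 5.63% of the 11368 genes under the filter with a value above 0. None of the 7 lay higher in every PN98 mouse, as 2.52% of those genes did. *Mkrn3*, a RING finger protein of the same cluster, overlapped at 0.235 to 0.452 and 0.279 to 0.561 FPKM, as did *Zim1* (0.322 to 1.30 and 0.251 to 0.790 FPKM) and *Asb4* (0.255 to 0.699 and 0.173 to 0.378 FPKM). *Usp29* was listed at 0 in every mouse but m49, which had 0.0126 FPKM.

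Grouped by the parental copy known to be expressed, 16 maternally expressed members were above the filter. Of these, 5 were called lower (*H19*, *Meg3*, *Rian*, *Mirg* and *Grb10*) and 1 higher (*Slc22a18*), and their median was −0.35 on the log2 scale. Of 15 paternally expressed members above the filter, 4 were called lower (*Igf2*, *Dlk1*, *Ndn* and *Slc38a4*) and 1 higher (*Zrsr1*), with a median of 0.26. Over all genes tested the median was −0.21, with 2.91% called lower and 2.34% called higher. Of the maternal calls, *H19*, *Meg3*, *Rian* and *Mirg* come from only 2 clusters. Called genes thus stood in both groups, and the difference between the 2 medians was not tested. The copy read in this tissue was not measured. *Ube3a*, whose imprint is restricted to neurons, is counted as maternal, and all transcripts of *Inpp5f* as paternal. By cluster, the median was −2.70 over the 4 genes of *Dlk1*/*Meg3* and −1.11 over the 5 of *H19*/*Igf2* with the *Kcnq1ot1* domain. In the 23 members of all other clusters and single loci it was 0.26, with 17 above 0 and 6 below it. Setting aside the 2 clusters with most falling members favours a rise in the rest. Over all 32 members, 18 fold changes were above 0 and 14 below it, against 5311 above and 10789 below over all genes. These counts and medians cover only members that passed the filter.

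The balance between genes of a locus, or of a ligand and its receptor, was described as the log2 ratio of their FPKM within each mouse, which does not depend on scaling between libraries, and the ages were compared by exact permutation (two-sided, all 70 ways to divide the 8 mice). In 13 pairs both members could be measured, and in 8 the ratio did not overlap between the ages (p = 0.0286, the smallest the test allows, Benjamini-Hochberg adjusted p = 0.0464 over the 13 pairs in the exact permutation test). The share among other gene pairs was not computed. A pair with a called gene restates the change of that gene in part, as *Igf2r*/*Igf2* does the fall of *Igf2*. *H19* was 5.86 to 9.11 times *Igf2* at PN21 and 0.448 to 2.35 times *Igf2* at PN98, so that the maternal RNA lost more than its paternal neighbour (difference of log2 ratios −3.27). *Igf2r* was 0.359 to 0.907 times *Igf2* at PN21 and 2.60 to 5.30 times at PN98 (2.59), so the receptor was the less abundant of the pair in every PN21 mouse and the more abundant in every PN98 mouse. *Meg3* was 4.72 to 16.9 times *Dlk1* at PN21 and 21.8 to 38.3 times at PN98 (1.34), and here the paternal gene lost more. With 1 FPKM added to both genes or with the highest transcript of each, the *Meg3*/*Dlk1* ratio overlapped between the ages.

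*Slc22a18* was 0.0319 to 0.0618 times *Tssc4* at PN21 and 0.233 to 0.431 times at PN98 (2.78), although both genes of this pair are maternally expressed. With the highest transcript of each gene this ratio overlapped between the ages. *Snrpn* was 0.149 to 0.192 times *Ndn* at PN21 and 0.550 to 0.884 times at PN98 (2.02), 2 paternally expressed genes of 1 cluster. *Ube3a* was 0.900 to 1.80 times *Snrpn* at PN21 and 0.567 to 0.741 times at PN98 (−0.87). *Zrsr1* was 0.0192 to 0.0407 times *Commd1* at PN21 and 0.0502 to 0.116 times at PN98 (1.63). *Mirg* against *Meg3* also did not overlap (−0.68), but its direction turned with 1 FPKM added to both (0.21). The ratio of *Rian* to *Meg3* (−0.65, p = 0.0857 in the exact permutation test) overlapped between the ages, as did *Nnat*/*Blcap*, *Peg10*/*Sgce*, *Ppp1r9a*/*Sgce* and *Airn*/*Igf2r* (p of 0.0571 to 0.457 in the exact permutation test).

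**Figure D4:**
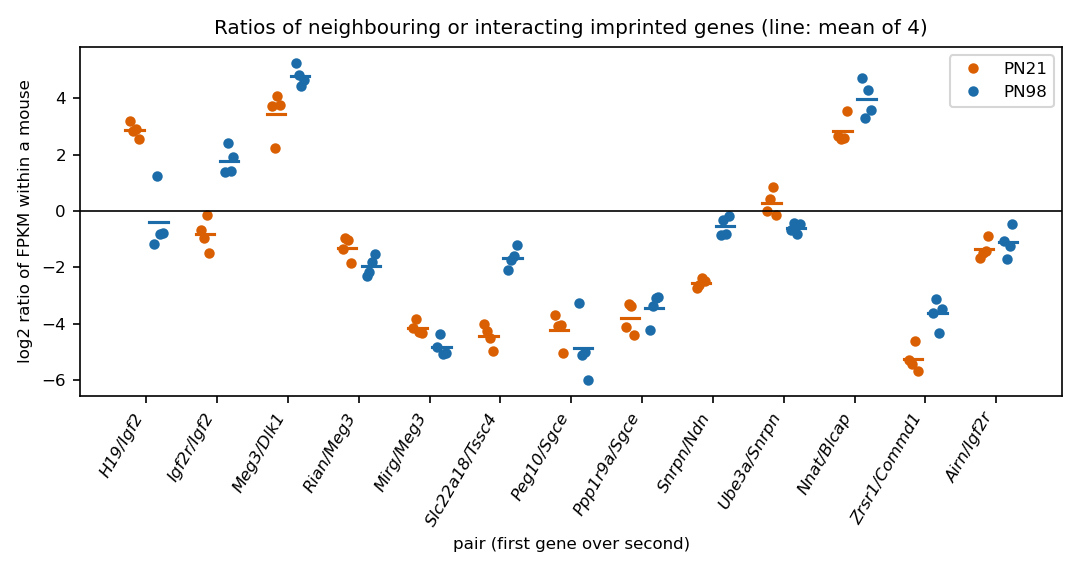
Log2 ratio of FPKM of 2 imprinted genes within a mouse (y axis) for 13 pairs in 4 PN21 and 4 PN98 mice, with the mean of each age as a line. The ages are apart in 8 pairs, with *H19*/*Igf2* and *Slc22a18*/*Tssc4* moving most and in opposite directions.

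At the level of single transcripts, limma was run on log2(FPKM) without pseudocount for transcripts above 0 in all 8 mice and with a mean above 2 FPKM at either age, which left 66 transcripts of 29 members among 23175 transcripts. By the transcript with the lowest p, 6 members were lower (*H19*, *Igf2*, *Dlk1*, *Meg3*, *Rian* and *Gnas*) and 1 was higher (*Zrsr1*). Counted singly, 13 of the 66 member transcripts were lower, against 0.634% of all transcripts, and 1 was higher, against 0.716%. The 13 belong to the 6 lower genes just named, and transcripts of 1 gene are not independent of each other. The lowest adjusted p was that of Dlk1-205 (−4.18, limma adjusted p = 0.00625), which was at 3.54, 4.52, 1.93 and 2.82 FPKM at PN21 and 0.193, 0.215, 0.0942 and 0.206 FPKM at PN98. Like H19-204, Igf2-208 and Meg3-209, it passed the filter only through its PN21 values, with a PN98 mean of 0.177 FPKM. Of *Slc22a18*, no transcript passed this filter. *Mirg*, *Grb10* and *Ndn* missed the threshold here (adjusted p of 0.0749, 0.0762 and 0.101 from limma). The counts moved with each mouse left out, to between 2 and 4 lower and none higher without any other mouse than m35, and to 9 lower and 3 higher without m35.

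Marker lists moved with age beside the members, and their part in the results was not tested. Among them, dividing-cell markers fell in all 7 genes and were highest at PN98 in m35 (35.9 FPKM). Progenitor markers, which include preadipocyte genes, overlapped between the ages in their sum (307 to 527 against 203 to 451 FPKM), with 1 of 9, *F3*, the gene of coagulation factor III, called higher. Of the other 8, *Thy1* and *Cd34* lay lower in every PN98 mouse, uncalled (−2.17 and −1.20, limma adjusted p = 0.0962 and 0.148), and 7 of the 9 fold changes were below 0. Markers of endothelium and macrophages had no call and no unadjusted p under 0.05 among 5 genes each, and lymphocyte markers no call but 5 of 10 genes with an unadjusted p under 0.05, by limma. Of the epithelial list, 4 of 8 genes passed the filter and 1, *Epcam*, was called, lower at PN98.

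**Figure D5:**
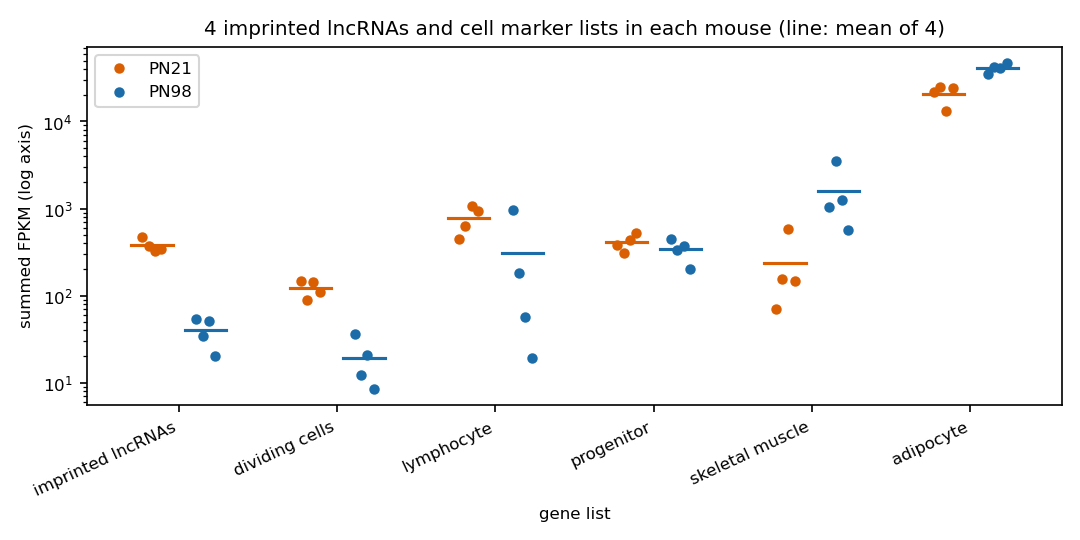
Summed FPKM (log axis) of the imprinted noncoding RNAs H19, Meg3, Rian and Mirg and of 5 marker lists in each of 4 PN21 and 4 PN98 mice, with the mean of each age as a line. The noncoding RNAs and dividing cell markers lie lower at PN98 without overlap, adipocyte markers higher, and lymphocyte, progenitor and muscle markers overlap.

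Of 40 further imprinted genes, 34 were found by symbol and 17 passed the filter. Of these, none was called lower by limma and 2 were called higher, against 2.91% and 2.34% of all genes tested. In the lower direction 1 gene, *Tspan32*, had an unadjusted p under 0.05 (log2 fold change −1.76 with a standard error of 0.71, limma adjusted p = 0.164). Called higher were *Slc22a3*, a neighbour of *Igf2r* that transports organic cations (8.92, 10.1, 9.51 and 7.24 FPKM at PN21 against 22.4, 23.4, 22.5 and 19.1 FPKM at PN98, log2 fold change 1.21 with a standard error of 0.15, limma adjusted p = 0.00681), and *Pon3*, a paraoxonase gene near *Peg10* (34.7, 34.2, 31.4 and 27.3 against 56.6, 65.1, 78.0 and 70.6 FPKM, log2 fold change 1.06 with a standard error of 0.16, limma adjusted p = 0.0123). Under the filter, *Rtl1* (0.118 to 0.172 against 0.00419 to 0.0115 FPKM) and *Zdbf2* lay lower in every PN98 mouse. *Klf14* lay higher (0.208 to 0.472 against 1.02 to 2.96 FPKM). Among all genes under the filter these shares were 5.63% and 2.52%. Of 18 factors that set or keep imprints, 13 passed the filter, and 12 of these had a fold change below 0, as had 10789 of all 16100 genes tested. Called was 1 gene, lower at PN98, against 2.91% of all genes. That gene was *Uhrf1*, which brings the maintenance methyltransferase DNMT1 to newly copied DNA. It was at 11.2, 8.80, 13.2 and 6.17 FPKM at PN21 and 2.39, 0.716, 1.28 and 0.908 FPKM at PN98 (log2 fold change −2.23 with a standard error of 0.29, limma adjusted p = 0.00708), and it is also known as a gene of dividing cells, whose markers fell alongside. *Dnmt1* (−1.09, limma adjusted p = 0.105), *Trim28* (−0.92, 0.0715) and *Zfp57* (−0.79, 0.0960) missed the threshold and overlapped between the ages.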

How the data were processed

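Inguinal fat of 8 mice was profiled, 4 at PN21 and 4 at PN98, by directional poly(A)+ RNA-seq. The authors aligned the reads with STAR 2.3.0 and quantified transcripts with Cufflinks 2.1.1 (submitters' processing notes, with CASAVA 1.8.2), and deposited FPKM per transcript, a length- and depth-normalized unit, in 1 table. Values in the deposited table had lost decimal marks in 40441 of 91969 transcripts. Marks were restored from the deposited mean, SD and score columns, the score being a log10 ratio of mean to SD that the authors computed. The mean and SD came out as those of 10 values, the 8 mice and 2 that are not listed, so a reading was kept where these 2 could be real and not negative. These 2 values also had to have few significant digits and to fit the deposited mean and SD. The columns served for nothing else. Of these transcripts 40422 had a single possible reading, and 19 were left out. The 5022 transcripts that are also in a second deposited table with its marks in place were all equal. The fold changes and p-values of the authors' own comparison were not used. No column belonged to other samples. Counts were not used here, library depth could not be judged, and counting error has no estimate.

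Transcripts were assigned to genes by Ensembl ID in GENCODE vM21 (GRCm38), 88737 of them, and summed per gene. Genes with a mean of at least 1 FPKM over the 8 mice were tested as log2(FPKM + 1) with limma 3.58.1 in R 4.3.3 (eBayes, 2 groups of 4, no covariates, Benjamini-Hochberg adjustment over 16100 genes). Fold changes on this scale understate changes of low genes. Transcripts were tested as log2(FPKM) with the filter of the study. The procedure was tested on simulated data. No batch is named in the labels, and p-values measure the spread between mice. Promoter windows are RefSeq, GRCm38.p6, and 34 of the 40 members had one. Those without one here were *H19*, *Cdkn1c*, *Peg10*, *Sgce*, *Trappc9* and *Impact*. All members with a value were described, those called and all of the *H19*/*Igf2*/*Kcnq1ot1* and *Dlk1*/*Meg3* clusters mouse by mouse. Members, pairs and gene lists were chosen with earlier results of these data known. 1 further marker list is not reported here. Alternatives covered the pseudocount, filter, scaling, weighting, way of summing transcripts and each mouse left out. Leaving out the mice richest in lymphocyte or muscle markers was added after seeing the data.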

Additional observations from a re-analysis of the deposited data

Results flagged for a closer look

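In 90 groups of 4 mice, made of the members and ratios at each age, 3 had a mouse that lay apart from the other mice of its age beyond the 95% critical value of Dixon's test, where chance gives about 1 in 20. *Ube3a* was at 6.80 FPKM in PN98 mouse m35, under 8.84, 9.11 and 8.73 FPKM in the other PN98 mice. The log2 ratio of *H19* to *Igf2* was 1.24 in PN98 mouse m106, against −1.16, −0.83 and −0.80 in the other PN98 mice, and still under the lowest PN21 mouse at 2.55. The log2 ratio of *Nnat* to *Blcap* was 3.54 in PN21 mouse m145, above PN98 mouse m106 at 3.303, against 2.67, 2.57 and 2.59 in the other PN21 mice.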

How the results depend on the processing

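*H19* was called under every alternative run at the gene level, and no called member other than *Zrsr1* changed direction. The 9 members lower and 2 higher became 7 lower and 5 higher with median of ratios scaling, 11 and 7 with arrayWeights (limma's weighting of libraries), 6 and 3 when scaled to the sum of nuclear genes, 7 and 2 with a pseudocount of 0.1, 8 and 2 without a filter, 10 and 3 with the filter of the study, 7 and 1 with the highest transcript of each gene and 8 and 1 with every row naming the symbol. They were 9 and 2 with limma's trend and without the mice richest in lymphocyte markers. Without the mice richest in muscle markers 1 was lower and 0 higher. Leaving out 1 mouse gave 6 to 10 lower and 2 to 5 higher. All genes called went from 845 to 4653 (arrayWeights), 1881 (without the mice richest in lymphocyte markers), 15 (without those richest in muscle markers) and 192 to 3594 (1 mouse left out). The paternal median of 0.26 became 0.079 without a filter, 0.45 with median of ratios scaling, 0.48 with scaling to nuclear genes, 0.12 with arrayWeights and 0.13 to 0.37 with 1 mouse left out. The maternal median of −0.35 became −0.13 and −0.082 under the 2 scalings and −0.44 to −0.27 with 1 mouse left out. Members called by their transcripts, 6 lower and 1 higher among 313 transcripts, became 2 higher among 545 with median of ratios scaling, 11 lower and 4 higher among 1563 with arrayWeights, 2 higher among 548 with zeros kept and 1 FPKM added, and 2 to 9 lower and 0 to 3 higher among 47 to 1756 with 1 mouse left out. Directions turned for *Zrsr1* with every row naming the symbol (−0.41), *Mirg*/*Meg3* with 1 FPKM added (0.21) and *Airn*/*Igf2r* with the highest transcript (−0.98). Among members not called, they turned for *Gnas* (0.056) and *Ube3a* (0.0096) with median of ratios scaling, both again with scaling to nuclear genes (0.10 and 0.050), *Peg10* with a pseudocount of 0.1 (−0.091), and *Igf2r* (−0.054), *Plagl1* (−0.048), *Peg10* (−0.30) and *Airn* (−0.020) with arrayWeights. They also turned for *Inpp5f* (−0.52) and *Airn* (−0.52) with the highest transcript, *Trappc9* with every row naming the symbol (−0.049), and *Plagl1* (−0.0064) and *Peg10* (−0.35) without the mice richest in lymphocyte markers. With 1 mouse left out they turned for *Peg10* (−0.32 to 0.27), *Igf2r* (−0.17 to 0.15), *Inpp5f* (−0.084 to 0.28) and *Plagl1* (−0.14 to 0.42). The median of all genes moved from −0.21 to 0.019 with scaling to nuclear genes, and that of the *Snrpn* cluster from −0.20 to 0.0096 with median of ratios scaling. The cause of these changes was not tested. Of the members' fold changes and ratios, 315 of 376 values kept their direction and side of the threshold under the other alternatives, and 328 of 360 with 1 mouse left out. No paired analysis was possible because the labels give the mice neither replicate numbers nor litters that could pair them. The unknown depth limits what can be said of members near 0, such as *Magel2*, *Usp29* and *Zim1*, and of splits between transcripts of 1 gene. The RNA is of whole tissue, and its lymphocyte and muscle markers varied between mice of 1 age.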
